A study of Mus musculus with 4 samples.

Results

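A set of 8 genes of cartilage and bone, or of the cells that make them, was followed in fetal lungs of Fgf8 hypomorph and wild type mice. They were the matrilins Matn1, Matn3 and Matn4, the cartilage oligomeric matrix protein gene Comp, the bone sialoprotein gene Ibsp, the osteopontin gene Spp1, and the transcription factor genes Sox5 and Sox6. They were chosen by gene name among the spots that were not controls, and every probe of each gene was kept, which gave 14 probes of 41174 and 8 genes of 28478 gene names. The choice of these genes used no measured value of the arrays, although it was made with earlier results of these data known.

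The study compared lungs of Fgf8H/- mice, called fgf8 hypomorph, with lungs of Fgf8+/+ littermates on a mixed background given as c57nl7/sv129, at E18.5. The Fgf8 protein is a signalling ligand of the fibroblast growth factor family. Lobes were freed of large airways and vessels, RNA samples each came from 3 pooled lungs, and each of 4 arrays held 1 wild type pool in Cy3 and 1 hypomorph pool in Cy5, so n = 4 pools per genotype. The array titles name the mutant by the letters AP/N, which the labels do not explain. Ratios are log2 of hypomorph over wild type, given as mean ± SD over 4 arrays unless another n is stated, and a probe was called at an adjusted p under 0.05 over 29991 probes tested (limma, Benjamini-Hochberg). No array had its dyes swapped, so genotype and any bias of a probe towards 1 dye cannot be told apart. With 4 arrays, their number limits the precision. Some wild type signals were alike on replicates 1 and 2 and higher on replicates 3 and 4. That of the muscle gene Ckm was 448, 402, 1142 and 1124 on the 4 arrays. Others, such as that of Ibsp, did not follow this pattern. How many probes did so was not counted, and whether such replicates share a source was not tested. The samples are whole lobes, so a lower value from fewer cells of a type and one from less RNA per cell cannot be told apart.

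Each array had 43379 spots besides controls, of which 32491 to 33744 in the wild type channel and 32731 to 34519 in the hypomorph channel were well above background. Markers of lung epithelium were present, and the probes of Sftpc, Sftpb and Nkx2-1 were well above background on 4 of 4 arrays in both genotypes. The Sftpc spot was saturated and marked as an outlier on 4 of 4 arrays, so Sftpc was not tested. Nor were the epithelial markers Sftpd and Scgb1a1, whose spots were marked on 4 and 3 arrays. Fgf8 itself had 1 probe well above background, at -0.31, -0.23, -0.09 and -0.09 on the 4 arrays, a mean of -0.18 ± 0.11 that did not pass the threshold (limma, adjusted p = 0.0572). It passed under 5 of 12 alternative settings, with means between -0.25 and -0.15 over all 12. The labels do not say where this probe lies relative to the altered alleles.

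Cartilage is built from collagen II fibrils and aggrecan, to which smaller proteins such as the matrilins and Comp bind and which they link together. Chondrocytes switch these genes on through Sox9 and its partners Sox5 and Sox6. Bone sialoprotein and osteopontin belong to a family of acidic, integrin-binding glycoproteins of mineralized tissue, encoded by neighbouring genes, and osteopontin is also secreted by macrophages and epithelial cells. In the respiratory tract cartilage lies around the trachea and bronchi.

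The promoters of Ibsp and Spp1 are shown because these neighbouring genes had the highest ratios among the 8 genes. They are the 250 bases before the first listed start, from RefSeq, build GRCm38.p6, at chr5:104299037-104299286 for Ibsp and chr5:104434861-104435110 for Spp1, both on the plus strand. Capitals mark matches, on either strand, to the TATA box letters TATAAA, to the CCAAT box, to the core of a cyclic AMP response element, spelled TGACGT, and to a RUNX core, spelled TGTGGT.
Ibsp: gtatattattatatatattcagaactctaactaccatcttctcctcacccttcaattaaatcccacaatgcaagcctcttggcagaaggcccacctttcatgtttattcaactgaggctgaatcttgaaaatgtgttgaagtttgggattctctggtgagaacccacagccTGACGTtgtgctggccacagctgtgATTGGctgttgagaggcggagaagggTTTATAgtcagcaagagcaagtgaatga
Spp1: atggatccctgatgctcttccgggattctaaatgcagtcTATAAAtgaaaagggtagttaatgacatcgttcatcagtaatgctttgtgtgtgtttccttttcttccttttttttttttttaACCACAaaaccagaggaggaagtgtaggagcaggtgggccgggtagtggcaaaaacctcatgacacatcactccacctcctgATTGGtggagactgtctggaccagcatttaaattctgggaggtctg
In the Ibsp window, the CCAAT and TATA boxes lay in reverse orientation, at 54 to 50 and 28 to 23 bases before the start, and the cyclic AMP core lay forward at 79 to 74. In the Spp1 window, the CCAAT box lay in reverse at 46 to 42 bases before the start, the RUNX core in reverse at 128 to 123 and the TATA box forward at 211 to 206. Among 27018 promoter windows of the same length, 34.47% held the CCAAT box, 12.97% the TATA box, 14.18% the RUNX core and 6.562% the cyclic AMP core. Of the 7 of the 8 genes that the promoter table held, 4 had the CCAAT box, 2 the TATA box, 2 the RUNX core and 2 the cyclic AMP core. A SOX core, spelled AACAAT, was found in 0 of these 7 and in 9.649% of all windows. None of the matches marked above overlapped another, and a match describes the letters only.

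Both bone matrix genes among the 8 rose in the hypomorph lung, and the cartilage matrix genes were mixed. Ibsp was 2.37-fold higher and Spp1 1.29-fold higher, the matrilins Matn4 and Matn3 rose by smaller amounts, 1 of 4 tested Sox6 probes rose, and Comp and Sox5 did not pass the test. Of the 14 probes, 10 passed the filter on dim probes, covering 7 genes. Of these 10, 5 were called higher and 0 lower, and 5 were not called. Over all 29991 probes tested, 24.9% were called, and 12.7% were called higher. The median of the 10 probe means was 0.19, and that of all probes tested was -0.00453.

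**Figure D1:**
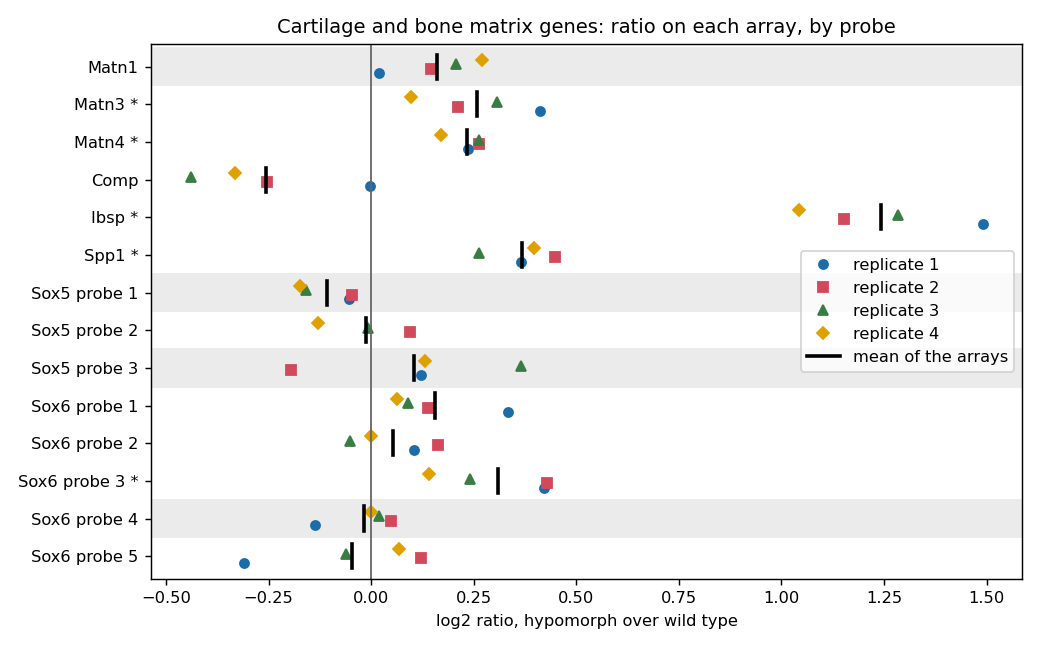
Log2 ratio of hypomorph over wild type (horizontal axis) on each of the 4 arrays for the 14 probes of the 8 genes. Black bars are means over the arrays, shaded rows are the 4 probes left untested because they were dim, and a star marks a probe called at an adjusted p under 0.05. The Ibsp points, from 1.04 to 1.49, lie to the right of every other point.

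Ibsp encodes bone sialoprotein, a secreted protein of mineralizing bone that nucleates mineral crystals and binds integrins. Its single probe, on chromosome 5 at 104551214 to 104551273 in mouse build mm8, was well above background on 4 of 4 arrays in both genotypes. The log2 signal in the wild type pools was 6.99, 6.64, 6.77 and 6.76. In the hypomorph pools it was 8.48, 7.79, 8.06 and 7.80. Every hypomorph pool was thus above every wild type pool. The share of all tested probes that separate the genotypes in this way was not counted. The log2 ratios were 1.49, 1.15, 1.28 and 1.04, a mean of 1.24 ± 0.19 (limma, adjusted p = 0.00116), higher on 4 of 4 arrays. Among the 29991 probes tested this mean ranked 11 from the top. The probe was dim, brighter than 20.5% of the tested probes, and the wild type signals lay not far above the 6.22 to 6.36 at which signals began to count as well above background. Its size moved with the background correction, to 2.36 with the scanner software's processed signals and 1.60 with an offset of 16, and it was called under all 12 alternative settings and without any 1 of the 4 arrays.

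Spp1 encodes osteopontin, a secreted phosphoprotein that binds integrins and CD44 and inhibits mineral growth. Its probe, on chromosome 5 at 104681071 to 104681130 (mm8), was printed in 10 spots. The log2 signal was 9.42, 9.30, 9.32 and 8.89 in the wild type and 9.78, 9.75, 9.58 and 9.29 in the hypomorph. The genotypes overlapped across arrays, since the hypomorph pool of replicate 4 was below the wild type pools of replicates 1, 2 and 3, but within each array the hypomorph was higher. The log2 ratios of 0.37, 0.45, 0.26 and 0.40 gave a mean of 0.37 ± 0.08 (limma, adjusted p = 0.00566).

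Because the probe was spotted repeatedly, the spread within an array can be set beside that between arrays. On replicate 1 the spots left after removal of marked ones ranged from 0.236 to 0.423 (n = 9 spots), and on replicate 2 from 0.349 to 0.636 (n = 9). On replicate 3 they ranged from 0.189 to 0.333 (n = 10), and on replicate 4 from 0.327 to 0.507 (n = 10). All of these spots were above 0, and the SD within an array was 0.0410 to 0.0885, compared with 0.08 between the 4 array means. Spots of an array are repeat readings of the same hybridised RNA and were averaged before the test. Spp1 was called under all 12 alternative settings, with means of 0.36 to 0.49, and without any 1 of the 4 arrays.

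**Figure D2:**
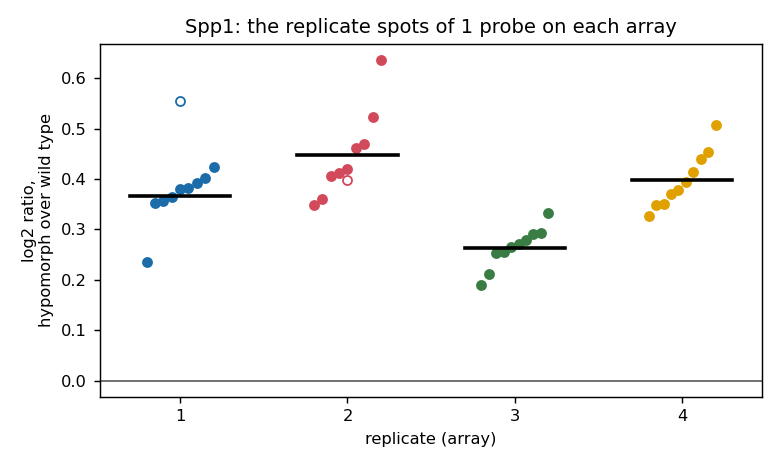
Log2 ratio of hypomorph over wild type (vertical axis) of each Spp1 spot on the 4 arrays (horizontal axis), in order of size within an array. Filled points are the spots used, open points are spots marked as outliers and left out, and black bars are the means of the filled points, 0.37, 0.45, 0.26 and 0.40.

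Ibsp and Spp1 lie in a run of related genes on mouse chromosome 5, and no other gene of the run passed the test as reported. In the order of the gene table (GRCm38.p6), Sparcl1 is followed by Dspp, Dmp1, Ibsp, Mepe, Spp1 and Pkd2. Dspp and Dmp1, which encode matrix proteins of dentin and bone, had 1 probe each that was not tested. Mepe, which lies between Ibsp and Spp1 and encodes a phosphoglycoprotein of bone matrix, had ratios of -0.12, 0.08 and -0.01 on the 3 arrays that measured it, a mean of -0.02 ± 0.10 (limma, adjusted p = 0.869, n = 3). On the flanks, Sparcl1 had a mean of -0.07 ± 0.19 (limma, adjusted p = 0.498), which other settings moved from -0.39 (processed signals, adjusted p = 0.0475) to 0.71 (median centring, 0.000259), and the polycystin gene Pkd2 one of -0.20 ± 0.14 (limma, adjusted p = 0.0602), which passed with array weights (0.0411), with an intensity trend and robust variance (0.0418) and without replicate 4 (0.0422). The difference between Ibsp or Spp1 and these neighbours was not tested.

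The genes whose 4 ratios lay nearest to those of Ibsp, by Euclidean distance over the 4 arrays, were Ccl11, Slitrk6, Defb37, Ngb and Plppr1. The distances were 0.544, 0.565, 0.672, 0.685 and 0.686 in log2 units, and the mean ratios were 1.09 ± 0.10, 1.49 ± 0.12, 0.98 ± 0.22, 1.04 ± 0.17 and 0.98 ± 0.38. Ccl11 encodes an eosinophil chemokine and Ngb a globin of nerve cells. The order depends on the background correction. With the processed signals the means were 2.36 for Ibsp, 1.11 for Ccl11, 1.66 for Slitrk6, 3.98 for Defb37, 1.11 for Ngb and 2.74 for Plppr1, so these genes no longer lay together. Plppr1 was not called without replicate 2 (adjusted p = 0.0527).

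Matrilins are adaptor proteins that link collagen fibrils to aggrecan. Matn1 and Matn3 are made chiefly in cartilage, and Matn2 and Matn4 in many tissues. Matn4 (chromosome 2, 164084303 to 164084362, minus strand, mm8) was bright, with log2 signals of 13.44, 13.52, 13.68 and 13.74 in the wild type and 13.68, 13.78, 13.94 and 13.91 in the hypomorph. The genotypes overlapped across arrays, but the hypomorph pool was the higher on each array. The ratios were 0.24, 0.26, 0.26 and 0.17, a mean of 0.23 ± 0.04 (limma, adjusted p = 0.0135), or 1.17-fold. The mean was 0.58 with median centring in place of loess, and the call was lost without replicate 2 (adjusted p = 0.0792) and without replicate 3 (adjusted p = 0.0706).

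Matn3 (chromosome 12, 8996705 to 8996764, mm8) was near background, being well above it on 3 arrays in the wild type and on 4 in the hypomorph. Its log2 signals were 6.69, 6.68, 6.58 and 6.55 in the wild type and 7.10, 6.89, 6.89 and 6.65 in the hypomorph, where the pool of replicate 4 fell inside the wild type range. The ratios were 0.41, 0.21, 0.31 and 0.10, a mean of 0.26 ± 0.13 (limma, adjusted p = 0.0293). This call was among the least steady: the mean was 0.09 with median centring (adjusted p = 0.334) and 0.70 with the processed signals, and without replicate 2 or 3 the adjusted p was 0.104 and 0.109.

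Matn1 (chromosome 4, 130225006 to 130226415, mm8) was not well above background on any array in either genotype and was not tested. Its log2 signals were 5.88 to 6.21 in the wild type and 6.02 to 6.42 in the hypomorph. The remaining matrilin, Matn2, which was not among the 8 genes, fell by 0.26 on the log2 scale (ratios -0.19, -0.25, -0.35 and -0.25, limma, adjusted p = 0.0125), but was 0.03 with median centring. Its call was also lost without replicate 2 (adjusted p = 0.0712) and without replicate 3 (adjusted p = 0.0649).

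Comp encodes cartilage oligomeric matrix protein, a pentameric thrombospondin that binds collagens in cartilage and tendon. Its probe (chromosome 8, 73310782 to 73310915, mm8) had log2 signals of 7.20, 7.20, 7.77 and 7.72 in the wild type and 7.20, 6.94, 7.33 and 7.39 in the hypomorph. The ratio was at 0 on replicate 1 and below it on the other 3 arrays, at -0.00, -0.25, -0.44 and -0.33. The mean was -0.26 ± 0.19, which narrowly missed the threshold (limma, adjusted p = 0.0525). It passed under 7 of 12 alternative settings, with means of -0.48 to -0.26 over all 12, and without replicate 1 (-0.34, adjusted p = 0.00703). Besides Comp, the only tested probe of the 8 genes called lower under any of these settings was Sox6 probe 5, with median centring.

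**Figure D3:**
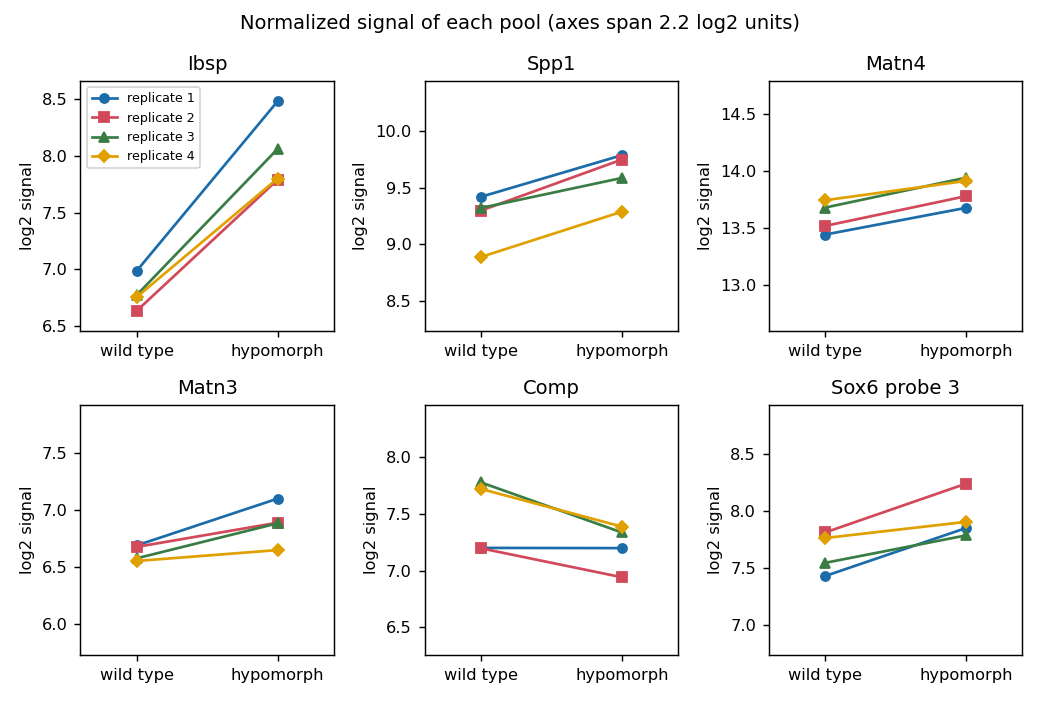
Normalized log2 signal (vertical axis) of the wild type and the hypomorph pool on each array for 6 probes, with a line joining the 2 pools of an array. Every panel spans the same number of log2 units, so slopes can be compared between panels, while levels of different probes cannot. For Ibsp every hypomorph pool lies above every wild type pool, and in the other panels the genotypes overlap. The share of all tested probes that separate the genotypes was not counted, so how unusual this is cannot be told.

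Sox5 and Sox6 are transcription factors of the SoxD group, which bind DNA in pairs and strengthen the action of Sox9 on cartilage genes. Sox6 had 5 probes on chromosome 7, minus strand, between 115263053 and 115332904 (mm8), and they did not give the same result. Probe 3, at 115268127 to 115268186, had log2 signals of 7.43, 7.81, 7.55 and 7.76 in the wild type and 7.85, 8.24, 7.79 and 7.91 in the hypomorph. Its ratios of 0.42, 0.43, 0.24 and 0.14 gave 0.31 ± 0.14 (limma, adjusted p = 0.0190). The call was lost with the processed signals (adjusted p = 0.0618), with the deposited series table (0.0588), without replicate 2 (0.0945) and without replicate 3 (0.0624).

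The other Sox6 probes were not called. Probe 1, at 115263053 to 115263112, had ratios of 0.33, 0.14, 0.09 and 0.06 (0.16 ± 0.12, limma, adjusted p = 0.0913). Probe 2, at 115266015 to 115266074 and the brightest of the gene, had ratios of 0.10, 0.16, -0.05 and -0.00 (0.05 ± 0.10, limma, adjusted p = 0.460). Probe 5, at 115332845 to 115332904, had ratios of -0.31, 0.12, -0.06 and 0.07 (-0.05 ± 0.19, limma, adjusted p = 0.684). Probe 4, at 115331109 to 115331168, was not well above background on any array and was not tested. With median centring probe 2 was called higher (0.22, adjusted p = 0.0278) and probe 5 lower (-0.23, adjusted p = 0.0469). The mean of the 4 tested probes of Sox6 was 0.12 (limma, adjusted p = 0.102). Differences between probes were not tested, and which exons the probes cover was not analysed here.

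Sox5 had 3 probes on chromosome 6, minus strand (mm8), of which 1 was tested. That probe, at 143864240 to 143864299, had ratios of 0.09, -0.01 and -0.13 on the 3 arrays that gave a value, since its spot on replicate 1 was marked as an outlier. The mean was -0.01 ± 0.11 (limma, adjusted p = 0.890, n = 3). The probe at 143790222 to 143790281 was not well above background on any array, and the probe at 144062082 to 144062141 was so in 2 hypomorph pools and 0 wild type pools. Sox13, the third SoxD gene, was called higher on its 3 measured arrays (0.17, 0.36 and 0.29, mean 0.27 ± 0.09, limma, adjusted p = 0.0295, n = 3), a call lost without replicate 2 (0.0852), 3 (0.133) or 4 (0.0977).

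**Figure D4:**
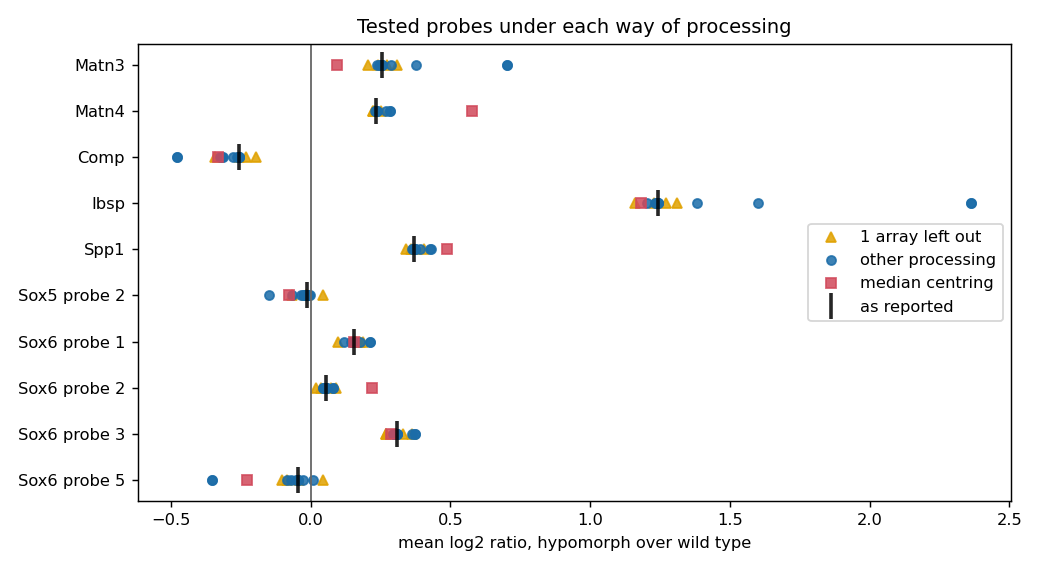
Mean log2 ratio of hypomorph over wild type (horizontal axis) for the 10 tested probes as reported (black bar), under other ways of processing (circles), with median centring (squares) and with 1 array left out (triangles). The Ibsp values stay between 1.16 and 2.36, and the Comp values stay below 0.

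Other genes of cartilage and bone did not move as a body. They were drawn up in 5 lists of 77 genes in all, of which 65 were measured, each by its brightest tested probe. Of the 65, 13 were higher, 13 lower and 39 not called, and over all 20611 genes 13.6% were higher and 13.0% lower. Under a stricter filter, well above background in both channels on 4 of 4 arrays, 13 were higher and 12 lower of 60. The median of the 65 was -0.00245, and that of all genes -0.00412. The number called depended on the arrays used: it was 26 with all 4, 8 without replicate 2, 10 without replicate 3, 17 without replicate 4 and 31 without replicate 1. Over all probes tested these numbers were, in the same order, 7468, 1597, 2407, 4812 and 7981.

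Among 17 measured genes of cartilage matrix, 6 were higher and 2 lower, with a median of 0.11. On the 4 arrays their medians were 0.20, 0.17, 0.04 and 0.05. Of the 2 lower, Prg4 was well above background on 3 arrays in the wild type and on 0 in the hypomorph. It thus passed the filter through the wild type alone, and under the stricter filter 6 were higher and 1 lower of 16. The defining genes of cartilage did not pass the test. Col2a1, which encodes collagen II, had ratios of 0.44, 0.28, -0.02 and 0.13 (0.21 ± 0.20, limma, adjusted p = 0.103), though 0.42 with median centring (adjusted p = 0.00384), and Acan, the aggrecan gene, had 0.30, 0.01, -0.23 and -0.10 (-0.00 ± 0.23, limma, adjusted p = 0.980). The largest rises were those of the proteoglycan genes Fmod (fibromodulin), at 0.66, 0.52, 0.54 and 0.52 and a mean of 0.56 ± 0.07 (limma, adjusted p = 0.00173), and Prelp, at 0.58, 0.51, 0.52 and 0.51 and a mean of 0.53 ± 0.03 (limma, adjusted p = 0.00158), with another Prelp probe at 0.32. Both are also made in tissues other than cartilage, and both calls held without any 1 of the 4 arrays. All 3 chains of collagen IX, which decorates collagen II fibrils, were called higher, Col9a1 at 0.35 ± 0.21, Col9a2 at 0.19 ± 0.03 and Col9a3 at 0.31 ± 0.12. Without replicate 3 none of the 3 was called, with adjusted p of 0.0562, 0.0967 and 0.0581. Col9a1 was also not called without replicate 2 (0.121) or with the processed signals (0.0627), and Col9a2 without replicate 2 (0.105) or 4 (0.0708). The summed signal of the 16 genes with a value on every array was 35372 to 39083 in the wild type pools and 39582 to 43470 in the hypomorph pools. Matn2, Prelp, Thbs3 and Fmod weigh heavily in this sum. Matn2, which was called lower, was at 9173 to 10164 in the wild type pools and 7960 to 8515 in the hypomorph pools. Thbs3, which was not called, was at 5368 to 6526 in the wild type pools and 4907 to 5916 in the hypomorph pools. In the wild type pools Fmod was at 4216 to 5695 and Prelp at 5473 to 7168, and in the hypomorph pools at 6060 to 8179 and 7807 to 10180. Acan was at 103 to 143 in the wild type pools, so the sum says little of the dimmer cartilage genes.

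Among 9 chondrocyte regulators, 2 were higher and 3 lower, with a median of 0.11. Gdf5, a growth factor of developing joints, fell by 0.70 on the log2 scale (ratios -0.73, -0.72, -0.73 and -0.62, limma, adjusted p = 0.00116). Pth1r, the receptor for parathyroid hormone-related protein, rose by 0.39 ± 0.03 (limma, adjusted p = 0.00322). Runx2, which directs chondrocyte maturation and osteoblast formation, fell by 0.31 on the log2 scale (limma, adjusted p = 0.00882), with another probe at -0.25, and its call was lost without replicate 2 (0.0589) or 3 (0.0507). Sox9 had a mean of 0.11 by its brightest probe and was not called, though that probe was called higher with median centring (0.35, adjusted p = 0.00266). Its other tested probes were at -0.10 and 0.02.

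Among 17 genes of bone matrix and mineralization, 1 was higher and 5 lower, with a median of -0.05. With median centring these counts became 6 and 2, and the median 0.01, while the median of all probes became 0.10. The gene that rose was Phex, an endopeptidase of phosphate balance (0.59 ± 0.10, limma, adjusted p = 0.00195). Alpl, the alkaline phosphatase that frees phosphate for mineral, fell by 0.43 on the log2 scale (limma, adjusted p = 0.00366). Mgp, an inhibitor of calcification that is abundant in lung, fell by 0.42 (limma, adjusted p = 0.00545) but was called higher with median centring (0.27, adjusted p = 0.0224). Ank, which exports pyrophosphate, fell by 0.39 (limma, adjusted p = 0.00884, n = 3), a call lost with median centring (0.0805) and without replicate 2 (0.0701) or 3 (0.0581). The osteocalcin gene Bglap had a mean of 0.06 and was not called.

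Among 12 osteoblast regulators, 3 were higher and 2 lower, with a median of 0.04. The homeobox gene Dlx5, which acts in osteoblasts and other cells, varied between arrays (0.46, 0.98, 1.25 and 0.20, mean 0.72 ± 0.48, limma, adjusted p = 0.0293) and was not called without replicate 2 (0.126) or 3 (0.0799) or with the processed signals (0.0522). Msx2 was at 0.33 ± 0.11 and Msx1 at 0.20 ± 0.03, both called higher. Msx2 lost its call without replicate 2 (0.0679) and narrowly with median centring (0.0507), and Msx1 without replicate 2 (0.0822), 3 (0.0879) or 4 (0.0525). The lower genes were Lrp5, a Wnt co-receptor (-0.28 ± 0.15, limma, adjusted p = 0.0289), and Bmp2, a bone morphogenetic protein (-0.23 ± 0.12, limma, adjusted p = 0.0313). Neither was called without replicate 2, 3 or 4, with the processed signals or with median centring, where Lrp5 was at -0.03 (0.771) and Bmp2 at -0.18 (0.0602). Sp7, a defining factor of osteoblasts, had a mean of -0.07 and was not called, but was called lower with the processed signals (-0.30, 0.0229) and with median centring (-0.25, 0.0108).

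Among 10 genes of osteoclasts and their ligand system, 1 was higher and 1 lower, with a median of -0.03. Tnfrsf11b, the decoy receptor osteoprotegerin, fell by 0.42 on the log2 scale (ratios -0.39, -0.52, -0.15 and -0.63, limma, adjusted p = 0.0165). Without replicate 2 its mean was -0.39 and the call was lost (0.0888). The osteoclast receptor gene Oscar was at 0.21 ± 0.11 (limma, adjusted p = 0.0381) and lost its call without replicate 2 (0.135), 3 (0.105) or 4 (0.0546), with the processed signals (0.0654) or their series table (0.0623), and narrowly with median centring (0.05003). The osteoclast phosphatase gene Acp5 was not called (-0.18 ± 0.10, limma, adjusted p = 0.0859, n = 3).

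**Figure D5:**
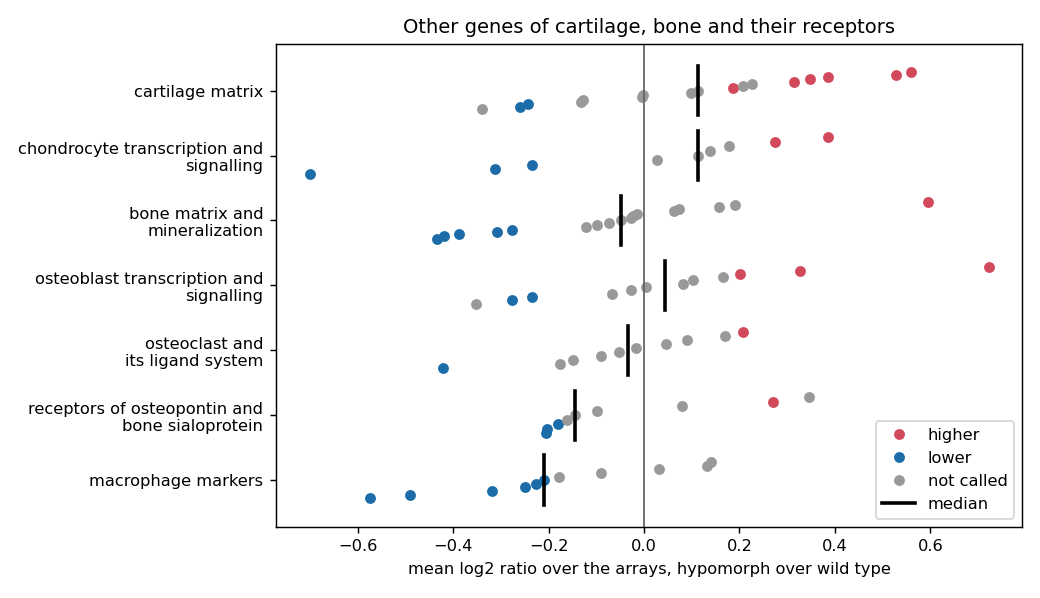
Mean log2 ratio over the 4 arrays (horizontal axis) of each measured gene of the 5 cartilage and bone lists, of the receptors of osteopontin and bone sialoprotein, and of macrophage markers. Colour gives the call at an adjusted p under 0.05, black bars are the medians of each list, which lie between -0.21 and 0.11, and the 8 genes are not drawn.

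Osteopontin and bone sialoprotein act on cells through integrins that read an arginine-glycine-aspartate sequence, and osteopontin also through CD44. Of 9 measured receptor genes, 1 was higher and 3 lower, with a median of -0.15. Cd44 rose by 0.27 ± 0.05 (limma, adjusted p = 0.00985), with another probe at 0.38, and lost its call without replicate 3 (0.0531). Itgb5, Itgav and Itga8 were called lower, at -0.21 ± 0.06, -0.20 ± 0.08 and -0.18 ± 0.02, but with median centring their means were 0.33, 0.04 and 0.25. None of these 3 was called without replicate 2, 3 or 4, with adjusted p of 0.0711 to 0.110. The direction of the integrins thus depended on the scaling, and that of Cd44 did not. Other tested probes lay between -0.43 and -0.18 for Itgav and between -0.17 and 0.07 for Itga8.

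Macrophages are a source of osteopontin, and 6 of their markers fell while Spp1 rose. Of 11 measured markers, 0 were higher and 6 lower, with a median of -0.21, and with median centring 2 were higher and 2 lower, with a median of 0.02. Cd163, a scavenger receptor, had ratios of -0.59, -0.59, -0.49 and -0.62 (-0.57 ± 0.06, limma, adjusted p = 0.00152), and Marco had -0.58, -0.53, -0.20 and -0.65 (-0.49 ± 0.20, limma, adjusted p = 0.0103), which missed the threshold without replicate 2 (0.0655). Adgre1, also called lower, was at -0.21, with another probe at 0.22. Cd68 (0.14), Siglec1 (0.13) and Mrc1 (0.03) were above 0 and not called. The number called lower was 2 without replicate 2, 3 without replicate 3 and 4 without replicate 4, with 0 higher each time. The summed signal of the 10 markers with a value on every array was 22166 to 25783 in the wild type pools and 19423 to 21516 in the hypomorph pools. The part of macrophages in the Spp1 value was not tested.

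Markers of other lung cells also moved. Of 6 endothelial markers, 1 was higher and 3 lower (median -0.16), and with median centring 5 were higher and 0 lower (median 0.31). The lower ones were Cldn5 at -0.31 ± 0.10, Kdr at -0.29 ± 0.10 and Cdh5 at -0.23 ± 0.14, with another Cdh5 probe at 0.13. The higher one was Tek at 0.23 ± 0.10, with another Tek probe at -0.22. Without replicate 2 none of the 6 was called, and over all probes tested 1597 were called in place of 7468. Of 7 epithelial markers, 2 were higher and 1 lower, the water channel gene Aqp5 at -0.66 ± 0.06 (limma, adjusted p = 0.00134), which was -0.13 with median centring (0.160). Of 9 ciliated cell markers, 1 was higher and 1 lower, with a median of 0.25, and with median centring 8 were higher and 0 lower. As reported, their medians on the 4 arrays were 0.58, 0.35, 0.03 and 0.02. Median centring moved the whole array, with 10997 of all 29991 probes called higher, 3815 lower and a median of 0.10. Smooth muscle markers gave 1 higher and 2 lower of 7, and erythroid markers 0 higher and 1 lower of 6. The part of these cells in the values of the 8 genes was not tested.

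Markers of skeletal muscle, a tissue that can be carried along with cartilage or bone, were also examined. Of 10 measured, 3 were higher and 1 lower, with a median of 0.10, and the summed signal of the 9 with a value on every array, which leaves out Myod1, was 4505 to 8631 in the wild type pools and 4590 to 6397 in the hypomorph pools. Myod1, a master regulator of muscle, was at 1.30, 1.42 and 1.57 on the 3 arrays that measured it (1.43 ± 0.13, limma, adjusted p = 0.00116, n = 3), and embryonic myosin Myh3 was at 0.44 ± 0.14. Muscle creatine kinase, Ckm, went the other way at -0.67 ± 0.53 (limma, adjusted p = 0.0453), a call lost without replicate 2 (0.102), 3 (0.142) or 4 (0.106). The part of these cells in the Ibsp value was not tested.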

How the data were processed

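Total RNA of 4 wild type and 4 hypomorph pools was compared on 4 2-colour Agilent arrays, all on 1 slide and read in 1 scan. The submitters' processing notes name Agilent Feature Extraction 9.5.1 as the reader. Per the file headers, the deposited intensities are raw means and backgrounds of both channels, beside processed intensities from which the software had subtracted background and dye bias. A log10 ratio of red over green is also deposited. The deposited series table holds log2 values equal to log2 of processed red over processed green (correlation 1 with each array). Its scale and direction are thus settled, and no centring was added after the software's own dye correction. The column medians were near 0, at -0.02, -0.00, -0.05 and -0.02.

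Intensities were corrected with normexp (limma 3.58.1, R 4.3.3, offset 50) and normalized within arrays by loess (span 0.3). Control spots and spots marked as outliers were left out, and spots of a probe were averaged. Probes were kept if well above background in 1 channel on 3 arrays with 3 values. A moderated test in limma (lmFit, eBayes) compared each mean log2 ratio with 0, p-values were adjusted by Benjamini-Hochberg over all probes, and the steps were tested on simulated data. Signals per channel are after loess and Aquantile, and sums over a list add the linear signals of probes with values on every array. Ratios of dim probes are drawn towards 0 by the offset.

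Genes named were all 8 genes with every probe, Fgf8, up to 4 genes of each list with the smallest p, Col2a1, Acan, and the 5 genes nearest to Ibsp. Col9a1, Col9a2, Prg4, Sox9, Bglap, Sp7, Bmp2, Mepe, Sparcl1 and Pkd2 were named after their values were seen. So were Adgre1, Cd68, Mrc1, Siglec1, Thbs3, Sftpd and Scgb1a1. The 8 genes and the lists were chosen with earlier results of these data known. Probe names are those of the array design, updated for 4783 probes through RefSeq accessions (GRCm38.p6).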

Additional observations from a re-analysis of the deposited data

Results flagged for a closer look

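Of 57 probes examined, 4 had 1 array far from the other 3, as measured by the gap to the nearest array over the whole range, where chance gives about 1 in 20. Fmod was at 0.66 on replicate 1 and 0.52 to 0.54 on the others (0.902 of the range). Gdf5 was at -0.62 on replicate 4 and -0.73 to -0.72 on the others (0.878). The fast muscle light chain gene Mylpf was at 0.10 on replicate 4 and 0.17 to 0.18 on the others (0.880). Epcam, an epithelial adhesion gene, was at 0.04 on replicate 4 and 0.21 to 0.24 on the others (0.836). In each case the ratio on the distant array had the same sign as on the others, and none of the 4 is among the 8 genes.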

How the results depend on the processing

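Results were recomputed under 12 alternatives to the processing and without each array. Matn3, Sox6 probe 5, Defb37 and Plppr1 were too dim to be tested under the stricter filter on dim probes, so they had 11. Ibsp, Spp1 and Matn4 were called higher under all 12, at 1.18 to 2.36, 0.36 to 0.49 and 0.23 to 0.58. With median centring in place of loess, the median of all probes rose from -0.00453 to 0.10, and 14812 probes were called (10997 higher, 3815 lower) in place of 7468 (3803 higher, 3665 lower). Of the genes of the cartilage and bone lists, 23 were then higher and 10 lower in place of 13 and 13. That setting turned the direction of 10 listed genes called lower: Matn2 (0.031), Mgp (0.27), Itgav (0.037), Itgb5 (0.33), Itga8 (0.25), Tagln (0.13), Alas2 (0.25), Cdh5 (0.32), Kdr (0.27) and Cldn5 (0.29). Sparcl1, not called as reported, was called higher there (0.71). The cause was not tested. Leaving out 1 array gave 2 to 6 called probes of the 8 genes, 1597 to 7981 called probes in all and 8 to 31 called genes of the lists. Of 43 listed genes named by the rule and called, 27 lost the call without replicate 2, 24 without replicate 3, 17 without replicate 4 and 2 without replicate 1. The test of ratios within arrays already pairs the 2 pools of an array. Beside that pairing, no further block by replicate number can be fitted with 1 ratio per number.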
